A study of Mus musculus with 24 samples.

Results

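The collagen chain genes of ID8 Trp53−/− cells were taken as every row of the count table whose symbol is Col, a number, a and a number (Col1a1, Col17a1 and so on). This gave 44 genes among 25229 symbols. They were divided by the known structure of their proteins into 11 genes of fibrillar collagens, 8 genes of basement membrane collagens and 25 others. ID8 P53 KO is a mouse ovarian cancer cell line, derived from ovarian surface epithelium of C57BL/6 mice and here without Trp53. Treatment lasted 6 days and was the vehicle DMSO, AU-15330 at 2.5 μM, cisplatin at 750 nM, or the combination of both drugs at these doses, as the labels give them. For cisplatin, the methods of the study name a different concentration in these cells. AU-15330 is a degrader (PROTAC) of SMARCA4 and SMARCA2, the motor subunits of SWI/SNF complexes, which move nucleosomes, and cisplatin is a DNA-damaging chemotherapeutic. Each group held 6 libraries of polyadenylated RNA, and each of the 24 libraries was summed from 2 sequencing lanes. All groups shared 1 cell line and the knockout, so no library here checks the genotype, and because AU-15330 removes proteins the mRNA of its targets does not check the treatment.

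Collagens are trimers of chains wound into a triple helix. The chains are hydroxylated and folded in the endoplasmic reticulum, secreted, trimmed by proteases and cross-linked outside the cell. Fibrillar collagens form the banded fibrils of connective tissue, type IV collagens form the network of the basement membrane that underlies epithelia such as the ovarian surface, and the remaining families decorate fibrils, form beaded filaments or anchor cells. Type IV genes lie in head to head pairs that share the region between their starts, and each pair encodes chains that can enter the same trimer.

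Library totals ran from 17592588 to 25260009 counts. Levels are given as CPM, counts scaled to a common library total after edgeR's TMM scaling, on which 3 counts, taken as the floor, corresponded to 0.120 to 0.186 CPM (counting error only). Nothing in the labels says that replicates were separate cultures, so p-values measure the spread between these libraries, which may be technical. Same-group libraries differed by a chi-square per degree of freedom of 2.30 to 122 (median 25.9) across genes, against 1.36 to 1.46 between lanes of a library. In each group replicates 4 to 6 lay closer to each other than to replicates 1 to 3 (with AU-15330, 2.30 to 3.46 among replicates 4 to 6 and 14.8 to 34.3 between the sets). The labels name no batch. This split was seen in the data, and the 60 called values of collagen genes below all had the same direction in the mean log2 CPM of replicates 1 to 3 and of replicates 4 to 6, a description without a test. In 12 of the 60 the difference of these means was over 2 times larger in one set than in the other, and these are given beside the gene. A gene was called at a Benjamini-Hochberg adjusted p under 0.05 from edgeR's quasi-likelihood test over the 12941 genes that passed its low-count filter. Log2 fold changes and adjusted p-values below come from that fit. The summed level of 8 ovarian surface and mesothelial markers (all tested) ran from 3514 to 5312 CPM with DMSO, 4190 to 4866 CPM with cisplatin, 1018 to 1150 CPM with AU-15330 and 1223 to 1404 CPM with the combination, with Krt7 at 3 counts or fewer in every AU-15330 library. Of 6 fibroblast markers, Thy1 was at 3 counts or fewer in every library outside the combination group, and the summed level, mostly Dcn, ran from 19.4 to 41.9 CPM with DMSO, 44.9 to 69.8 CPM with AU-15330, 147 to 225 CPM with cisplatin and 48.7 to 81.2 CPM with the combination. Of 4 leukocyte markers, Cd3e and Adgre1 were at 3 counts or fewer in all libraries. Their summed level, mostly Cd68, ran from 6.46 to 18.97 CPM with DMSO, 6.81 to 13.2 CPM with cisplatin, 16.7 to 53.0 CPM with AU-15330 and 23.9 to 42.2 CPM with the combination. Of the 4 endothelial markers Cdh5 and Kdr were at 3 counts or fewer in all libraries. Their summed level, mostly Pecam1, ran from 2.87 to 4.28 CPM with DMSO, 8.51 to 12.8 CPM with cisplatin, 0.261 to 0.763 CPM with AU-15330 and 0.483 to 1.20 CPM with the combination. The ovarian surface sum was lower in all libraries with AU-15330 and the fibroblast sum higher in all with cisplatin alone. These levels moved with the treatments, as did the collagen genes below, and their part in the results was not tested. In such bulk samples, fewer cells of a type and less RNA per cell cannot be told apart.

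Of the 44 genes, 21 passed the low-count filter, 6 fibrillar, 6 of the basement membrane and 9 others. The other 23 had at most 26 counts in any library, and 19 of them at most 10 counts in every library, although no gene was at 0 in all 24. With DMSO, collagen mRNA amounted to 1703 ± 332 CPM (SD, n = 6), of which 5 genes, Col4a5, Col1a1, Col4a6, Col4a2 and Col4a1, made up 89.7%. The total was 2287 ± 285 CPM with AU-15330, 1757 ± 296 CPM with cisplatin and 2157 ± 234 CPM with the combination.

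The summed level of basement membrane genes ranged from 917 to 1529 CPM (median 1118) with DMSO, 973 to 1729 CPM (median 1438) with cisplatin, 1806 to 2580 CPM (median 2008) with AU-15330 and 1607 to 2299 CPM (median 1827) with the combination, so that every library with AU-15330 exceeded every DMSO library. Fibrillar genes ran from 208 to 641 CPM (median 394) with DMSO and from 125 to 209 CPM (median 136) with AU-15330, with 1 library of 209 CPM just above the lowest DMSO library. With cisplatin they ran from 198 to 341 CPM (median 236) and with the combination from 192 to 282 CPM (median 216). The other genes ran from 116 to 158 CPM with DMSO (median 156), from 74.7 to 101 CPM with cisplatin (median 95.1) and from 20.7 to 36.6 CPM with AU-15330 (median 29.3), and were at 25.1 to 32.4 CPM with the combination (median 29.9). These sums are descriptions without a test, and each is led by few genes. Col1a1 was 93.3% of the fibrillar sum with DMSO and 48.4% with AU-15330, and Col17a1 was 77.4% of the third sum with DMSO, where Col20a1 led with AU-15330 at 53.5%.

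**Figure D1:**
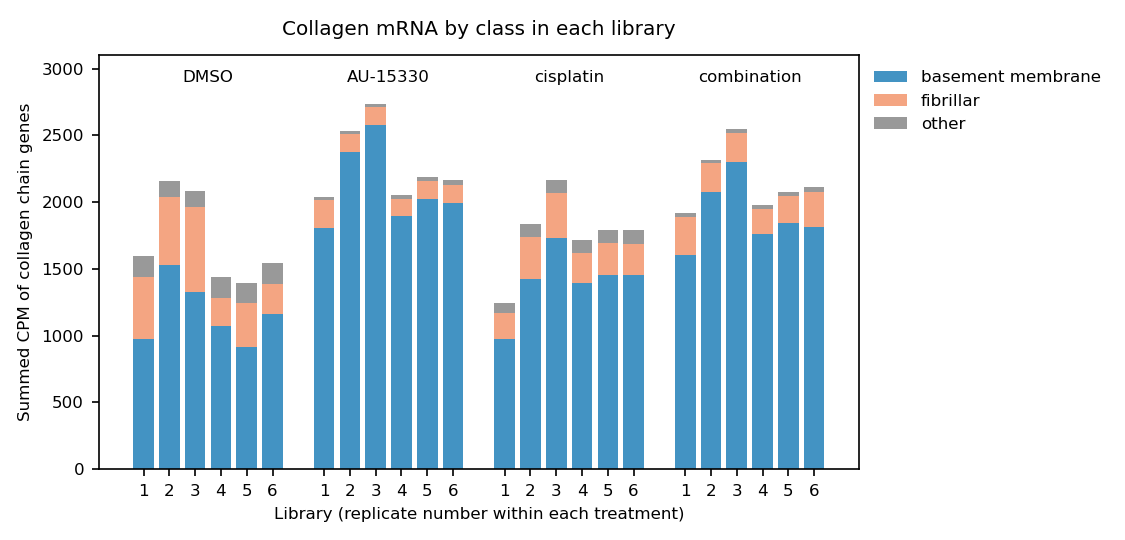
Summed CPM of the collagen chain genes (y axis) in each of the 24 libraries (x axis, replicate number within each treatment), stacked as basement membrane, fibrillar and other genes. The basement membrane sum was 1164 ± 229 CPM with DMSO and 2113 ± 300 CPM with AU-15330 (mean ± SD, n = 6), and the sum of the other genes was 144 ± 19.4 and 29.0 ± 5.59 CPM.

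Per kilobase of exon, the scale on which different genes can be compared, Col4a5 (68.2 CPM per kb), Col1a1 (56.0) and Col4a6 (45.4) had the highest mean levels with DMSO. Col4a6 led with AU-15330 at 168 CPM per kb and with the combination at 105 CPM per kb. With cisplatin Col4a2 (57.4 CPM per kb), Col4a1 (51.7) and Col4a5 (50.8) stood close together, with Col4a6 at 36.8.

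In cisplatin-treated cells, 16 of the 21 tested genes differed from DMSO, 11 higher and 5 lower, against a background of 51.7% of all tested genes (26.0% higher and 25.7% lower). The median log2 fold change of the tested collagen genes was 0.78 with cisplatin, 0.28 with AU-15330, −0.38 in the combination against cisplatin, 0.29 in the combination against AU-15330 and −0.51 for the interaction. Over all genes tested these medians were −0.0041, −0.0030, 0.039, 0.0062 and 0.0065. By class, with cisplatin 2 fibrillar genes were higher (Col5a2 and Col11a2) and 2 lower (Col1a1 and Col5a1), 3 basement membrane genes were higher (Col4a1, Col4a2 and Col18a1) and 2 lower (Col4a5 and Col4a6), and 6 others were higher with 1 lower (Col17a1). With AU-15330 alone, 15 genes differed from DMSO, 8 higher and 7 lower, where 73.4% of all tested genes were called (36.2% higher and 37.2% lower). By class 4 fibrillar genes were higher and 1 lower, 2 basement membrane genes higher and 2 lower, and 2 others higher and 4 lower. Between the combination and cisplatin 14 genes differed, 5 higher and 9 lower, where 68.1% of all tested genes were called (35.4% higher and 32.7% lower). Of these, the 4 fibrillar genes were all higher, and there were 1 higher and 2 lower of the basement membrane, and 0 higher and 7 lower others. Between the combination and AU-15330 7 genes differed, 4 higher and 3 lower, where 41.7% were called (22.2% higher and 19.5% lower), namely 1 fibrillar gene higher, 2 basement membrane genes higher and 2 lower, and 1 other each way. The filter asks for about 0.457 CPM in 6 libraries of any group. Col11a1, Col12a1 and Col18a1 lay below that level in all DMSO libraries and so passed only through treated groups, with at most 4, 6 and 6 counts in a DMSO library, and Col5a2 and Col6a2 reached it in 1 and 2 DMSO libraries. Col15a1 and Col14a1 reached that level in 0 AU-15330 libraries and in 1 and 0 combination libraries, so they passed mainly through the DMSO and cisplatin groups. The counts and medians above include such genes and support nothing about the collagen genes as a list. Scaling by library totals alone shifted the median of all genes by 0.13 on the log2 scale in AU-15330 against DMSO and raised the share of higher calls over all genes from 49.3% to 58.6%, and from 50.2% to 61.1% in cisplatin against DMSO.

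**Figure D2:**
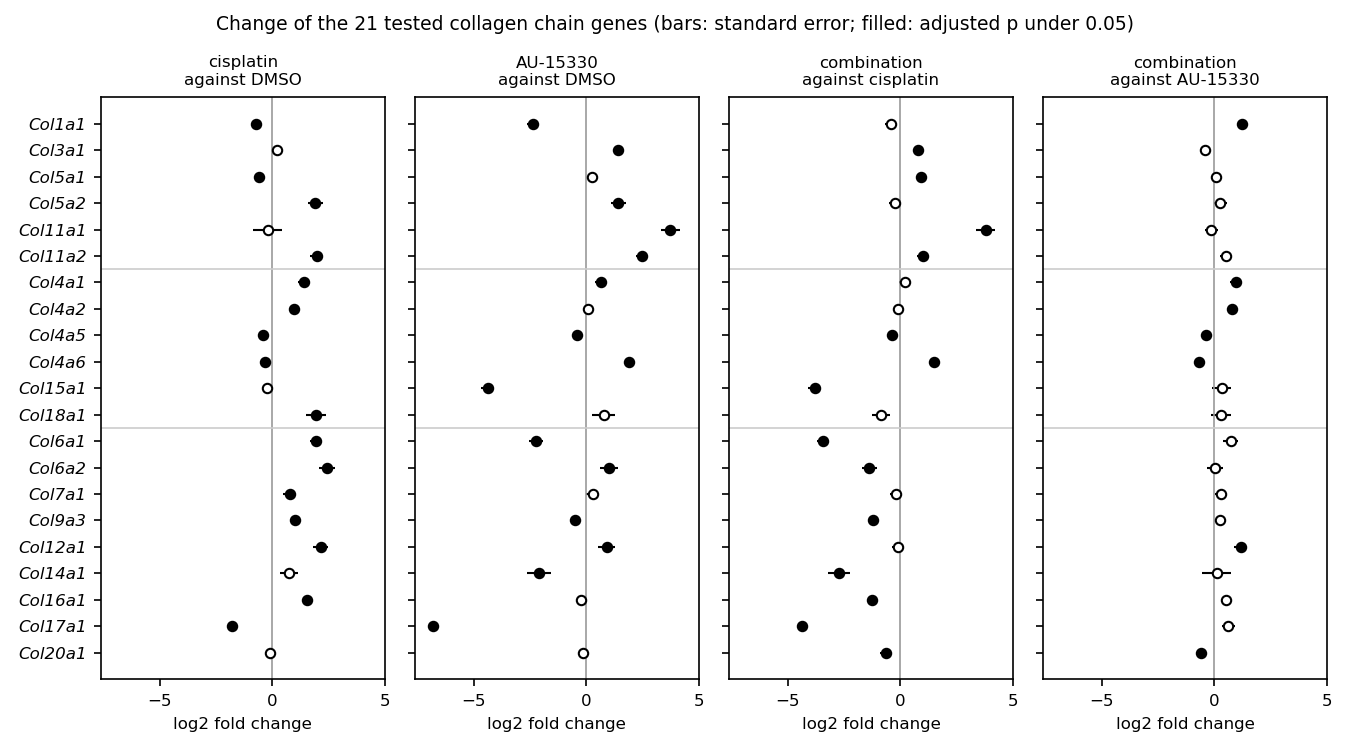
Log2 fold change (x axis) of the 21 tested collagen chain genes (y axis, grouped from the top as fibrillar, basement membrane and other) in 4 comparisons, with bars for the standard error and filled points for adjusted p under 0.05. The point farthest to the left is Col17a1 in AU-15330 against DMSO (−6.79), and the point farthest to the right is Col11a1 in the combination against cisplatin (3.81).

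Col4a6 and Col4a5, whose chains form the basement membrane trimers found beside smooth muscle and in some epithelia, parted in level with AU-15330. Col4a6 measured 304 to 411 CPM (median 380) with DMSO, 202 to 329 CPM (median 315) with cisplatin, 1075 to 1519 CPM (median 1365) with AU-15330 and 623 to 933 CPM (median 863) with the combination. Every library with AU-15330 was above every library without it, and the AU-15330 libraries were above those of the combination. The gene rose 3.69-fold with AU-15330 over DMSO (log2 fold change 1.88, SE 0.119, adjusted p = 1.46e-13) and 2.85-fold in the combination over cisplatin (1.51, SE 0.118, adjusted p = 1.36e-11), and was lower in the combination than with AU-15330 (−0.68, SE 0.115, adjusted p = 3.92e-05). Between cisplatin and DMSO the groups overlapped (−0.30, SE 0.115, adjusted p = 0.0294), and that call was lost without replicates 2, 3, 4 or 6 in turn (adjusted p 0.0552 to 0.138) and under scaling by library totals (adjusted p = 0.0852). It was −0.47 in replicates 1 to 3 and −0.16 in replicates 4 to 6. Col4a5 went the other way and by less, with 344 to 619 CPM (median 448) with DMSO, 293 to 421 CPM (median 321) with AU-15330, 243 to 414 CPM (median 347) with cisplatin and 223 to 287 CPM (median 265) with the combination. The combination libraries lay below all DMSO and all AU-15330 libraries and overlapped those of cisplatin. Its log2 fold changes were −0.43 (SE 0.125, adjusted p = 0.00359) with AU-15330 and −0.42 (SE 0.125, adjusted p = 0.00596) with cisplatin against DMSO, and −0.38 in the combination against either drug (adjusted p = 0.00874 against cisplatin and 0.0159 against AU-15330). The cisplatin call was lost without replicate 2 (−0.31, adjusted p = 0.0532). In replicates 1 to 3 and 4 to 6 Col4a5 differed by −0.62 and −0.21 with cisplatin, and by −0.53 and −0.21 in the combination against AU-15330.

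**Figure D3:**
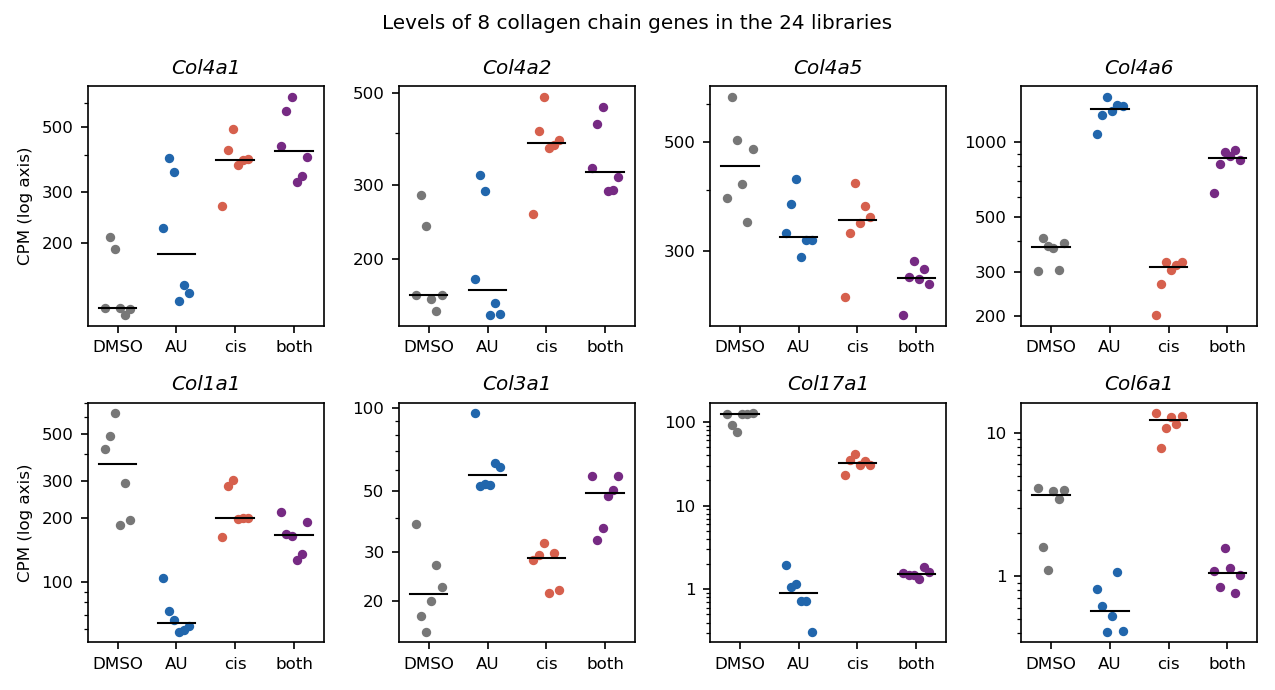
CPM on a log axis (y axis) of 8 collagen chain genes in the libraries of each treatment (x axis: DMSO, AU for AU-15330, cis for cisplatin, both for the combination), with a point per library and a line at the median. For Col4a6 and Col17a1, libraries with AU-15330 do not overlap libraries without it, while Col6a1 is highest in the 6 cisplatin libraries.

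In mm10 (GENCODE M21), Col4a6 occupies chrX:141165403-141474076 on the minus strand and Col4a5 chrX:141475385-141689234 on the plus strand, with 1308 bases between their starts. The stretches just upstream of both starts are shown because the 2 genes read away from this shared region and yet changed in opposite directions with AU-15330. They are RefSeq promoter sequences of GRCm38.p6, cut where an annotated exon begins, and cover chrX:141474077-141474326 (minus strand) for Col4a6 and chrX:141475169-141475384 (plus strand) for Col4a5. Capitals mark exact matches on either strand to the letters of common motifs, which were TATAAA for the TATA box, CCAAT for the box of that name, GGGCGG for the GC box, TGANTCA for an AP-1 site, CATTCC for a TEAD site and CACGTG for an E-box.
Col4a6: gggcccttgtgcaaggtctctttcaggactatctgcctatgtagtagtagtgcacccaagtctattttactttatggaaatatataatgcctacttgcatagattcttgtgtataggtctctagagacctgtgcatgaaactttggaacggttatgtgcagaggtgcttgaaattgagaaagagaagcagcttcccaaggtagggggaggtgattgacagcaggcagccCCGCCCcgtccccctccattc
Col4a5: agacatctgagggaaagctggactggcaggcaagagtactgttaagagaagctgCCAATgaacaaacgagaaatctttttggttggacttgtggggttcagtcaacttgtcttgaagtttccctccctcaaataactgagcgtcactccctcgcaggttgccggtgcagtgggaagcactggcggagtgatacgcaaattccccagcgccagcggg
The Col4a6 stretch held a GC box match, read as its reverse complement, and the Col4a5 stretch a CCAAT box match. The uncut RefSeq window of Col4a5, which runs into the annotated exon, also held a GC box match. Over the 250 bases upstream of 32851 RefSeq promoters, 32.7% held the GC box and 33.8% the CCAAT box, 12.4% the TATA box, 6.75% the AP-1 site, 12.6% the TEAD site and 6.02% the E-box. Of the 44 collagen genes, 35 matched an entry, with 38 promoters in all, of which 22 held the GC box (57.9%), 13 the CCAAT box, 5 the TATA box, 4 the TEAD site, 1 the AP-1 site and 0 the E-box. A match is only a description of the letters, and no binding was measured.

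Col4a1 and Col4a2 encode the chains of the most widespread type IV trimer and lie head to head on mouse chromosome 8, at chr8:11198423-11312826 (minus strand) and chr8:11312805-11449287 (plus strand), where their annotated ends overlap by 22 bases. Both were higher with cisplatin. Col4a1 measured 114 to 209 CPM (median 120) with DMSO, 267 to 491 CPM (median 386) with cisplatin, 126 to 392 CPM (median 184) with AU-15330 and 325 to 632 CPM (median 412) with the combination. All cisplatin and all combination libraries were above all DMSO libraries, while the AU-15330 group spread over both, with replicates 4 to 6 at 126 to 143 CPM and replicates 1 to 3 at 224 to 392 CPM. The combination divided in the same way, with replicates 4 to 6 at 325 to 395 CPM and replicates 1 to 3 at 430 to 632 CPM. The log2 fold change was 1.41 (SE 0.255, adjusted p = 5.07e-05) for cisplatin against DMSO and 0.97 (SE 0.252, adjusted p = 0.00308) for the combination against AU-15330. AU-15330 alone gave 0.65 (SE 0.252, adjusted p = 0.0226), a call lost without replicate 1 (0.59, adjusted p = 0.0688) and when only those 2 groups entered the fit (adjusted p = 0.0540). It was 0.89 in replicates 1 to 3 and 0.20 in replicates 4 to 6. Col4a2 measured 150 to 285 CPM (median 164) with DMSO, 146 to 317 CPM (median 168) with AU-15330, 256 to 489 CPM (median 380) with cisplatin and 291 to 463 CPM (median 323) with the combination. It was 0.97 higher on the log2 scale with cisplatin than with DMSO (SE 0.202, adjusted p = 0.00026), with 1 cisplatin library inside the DMSO range, and 0.77 higher in the combination than with AU-15330 (SE 0.202, adjusted p = 0.00332). Between AU-15330 and DMSO its difference was 0.09 (SE 0.201, adjusted p = 0.692).

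Within each library, the ratio of partners removes scaling. Col4a6 to Col4a5 was 0.665 to 0.912 (median 0.799) with DMSO and 0.795 to 0.933 (median 0.850) with cisplatin, but from 3.29 to 4.56 (median 4.01) with AU-15330, and from 2.80 to 3.38 (median 3.25) with the combination. The ratio of Col4a1 to Col4a2 moved within a narrower span, from 0.724 to 0.795 (median 0.743) with DMSO to 0.863 to 1.25 (median 1.06) with AU-15330, 1.00 to 1.04 (median 1.02) with cisplatin and 1.12 to 1.36 (median 1.28) with the combination. No DMSO library reached the Col4a1 to Col4a2 ratio of a treated library. The ratios were not tested.

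**Figure D4:**
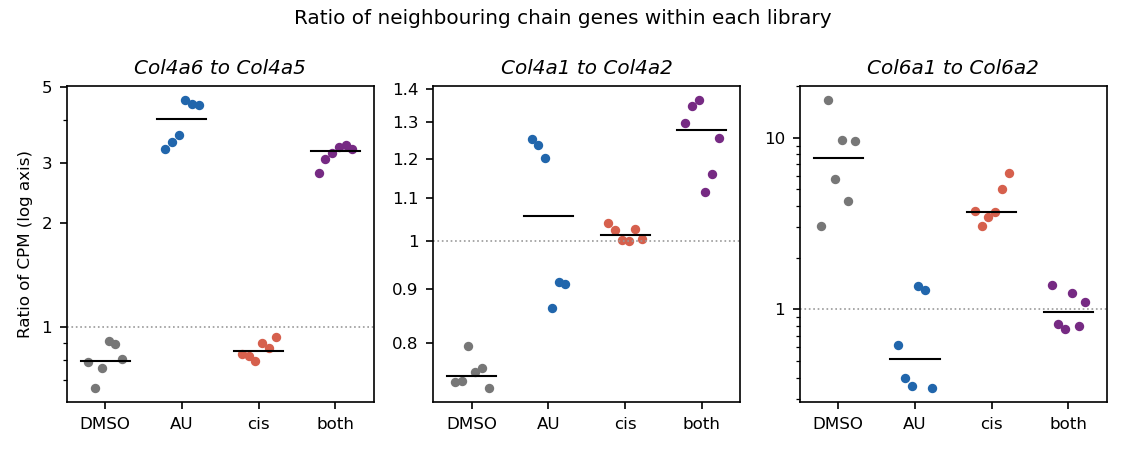
Ratio of CPM on a log axis (y axis) of Col4a6 to Col4a5, Col4a1 to Col4a2 and Col6a1 to Col6a2 in each library, by treatment (x axis, as in the plot of levels by library), with lines at the medians and a dotted line at 1. The median Col4a6 to Col4a5 ratio was 0.799 with DMSO and 4.01 with AU-15330, and the Col6a1 to Col6a2 ratio was 7.65 and 0.510. The latter rests on few counts, 2 to 22 of Col6a2 per DMSO library.

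The remaining type IV genes, Col4a3 and Col4a4, which encode chains of the kidney filtration barrier, were near the floor with at most 11 and 17 counts summed over any group. Col15a1 and Col18a1 encode the proteoglycan collagens of the basement membrane zone, the latter the source of endostatin. Col15a1 measured 3.81 to 5.72 CPM (median 4.36) with DMSO and 2.76 to 4.83 CPM (median 3.86) with cisplatin, against 0.0440 to 0.360 CPM (median 0.241) with AU-15330 and 0.0479 to 0.476 CPM (median 0.230) with the combination. All libraries with AU-15330 were below all without it, a fall by 4.38 on the log2 scale without cisplatin (SE 0.300, adjusted p = 7.92e-13) and by 3.80 with it (SE 0.288, adjusted p = 8.14e-12). Col15a1 had 1 to 8 counts per AU-15330 library and 1 to 11 per combination library, around the floor, so the sizes of these falls are uncertain. Col18a1 was low throughout, with 20 counts summed over the DMSO group and 91 over the cisplatin group, in which it was higher (log2 fold change 1.93, SE 0.450, adjusted p = 0.000812). It passed the filter only through treated libraries, 3 with cisplatin, 2 with the combination and 1 with AU-15330, so this size is uncertain. Its cisplatin mean of 0.659 CPM included 1 library at 1.49 CPM, the rest lying at 0.331 to 0.639 CPM.

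Among the fibrillar genes, Col1a1, the main chain of type I collagen (chr11:94936224-94953042, plus strand), was the most abundant. It measured 186 to 622 CPM (median 359) with DMSO, 162 to 302 CPM (median 199) with cisplatin, 58.4 to 104 CPM (median 64.2) with AU-15330 and 127 to 213 CPM (median 167) with the combination. AU-15330 libraries were below all others. The DMSO group was widely spread, with replicates 1 to 3 at 424 to 622 CPM and replicates 4 to 6 at 186 to 293 CPM. Col1a1 was 5.22-fold lower with AU-15330 than with DMSO (log2 fold change −2.38, SE 0.245, adjusted p = 2.44e-09) and 1.24 higher on the log2 scale in the combination than with AU-15330 (SE 0.238, adjusted p = 0.000162). Against DMSO the cisplatin value was −0.72 (SE 0.234, adjusted p = 0.0123), lower in 4 of 6 same-numbered libraries, and the call was lost without replicate 3 (−0.58, adjusted p = 0.0519). It was −1.07 in replicates 1 to 3 and −0.14 in replicates 4 to 6. The combination against cisplatin gave −0.43 (SE 0.233, adjusted p = 0.107). This was called without replicate 1 (−0.63, adjusted p = 0.0300) and with only those 2 groups in the fit (adjusted p = 0.0142).

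Col1a2, which encodes the partner chain of type I collagen, gave 24 counts in all 24 libraries, 0 in 16 of them and at most 5 in any, whereas Col1a1 gave 105796. Of these counts, 16 fell in the combination group and 3, 3 and 2 in the DMSO, AU-15330 and cisplatin groups. The partner gene was thus within 3 counts summed over each of 3 groups in cells where Col1a1 was among the leading collagen mRNAs.

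Col3a1, the chain of type III collagen, ran from 15.5 to 37.9 CPM (median 21.2) with DMSO, 21.4 to 32.4 CPM (median 28.7) with cisplatin, 52.1 to 95.9 CPM (median 57.1) with AU-15330 and 33.3 to 57.0 CPM (median 49.4) with the combination. All libraries with AU-15330 were above their counterparts without it, by 1.43 on the log2 scale over DMSO (SE 0.190, adjusted p = 2.09e-07) and by 0.79 over cisplatin (SE 0.187, adjusted p = 0.000576, with 0.46 in replicates 1 to 3 and 1.10 in replicates 4 to 6). Col3a1 and Col1a1 therefore changed in opposite directions with AU-15330 alone. In the combination it was below AU-15330 in 6 of 6 same-numbered pairs (−0.42, SE 0.185, adjusted p = 0.0699), which was called with the replicate number as a block (−0.40, adjusted p = 0.0194). Col3a1 did not pass the test between cisplatin and DMSO (0.22, SE 0.190, adjusted p = 0.339), except without replicate 1 (0.38, adjusted p = 0.0437).

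The type XI genes, whose chains control fibril diameter in cartilage and elsewhere, were low and rose with AU-15330. Col11a1 was at 0 to 0.195 CPM (median 0.0941) with DMSO and 0 to 0.181 CPM (median 0.0679) with cisplatin, each 11 counts over 6 libraries, and at 0.810 to 2.12 CPM (median 1.13) with AU-15330 and 0.958 to 1.41 CPM (median 1.16) with the combination. Every library with AU-15330 was above every library without it, with log2 fold changes of 3.74 (SE 0.427, adjusted p = 1.58e-08) over DMSO and 3.81 (SE 0.426, adjusted p = 1.33e-08) over cisplatin. Col11a1 passed the low-count filter only through the AU-15330 and combination groups. The sizes of these folds rest on 0 to 4 counts per DMSO or cisplatin library and are uncertain. Col11a2 measured 0.557 to 2.37 CPM (median 1.53) with DMSO, 3.74 to 11.3 CPM (median 8.83) with AU-15330, 3.61 to 9.18 CPM (median 5.71) with cisplatin and 8.09 to 15.3 CPM (median 12.2) with the combination. All treated libraries exceeded all DMSO libraries, and the log2 fold change against DMSO was 2.48 with AU-15330 (SE 0.282, adjusted p = 1.47e-08) and 1.99 with cisplatin (SE 0.283, adjusted p = 1.98e-06). The combination was 0.99 above cisplatin (SE 0.242, adjusted p = 0.000768) and its difference from AU-15330 was 0.50 (SE 0.239, adjusted p = 0.0924). With the replicate number as a block this difference was called (0.54, adjusted p = 0.00594), and the combination was higher in 6 of 6 same-numbered pairs.

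The upstream stretch of Col11a1, the gene with the largest fitted increase, is shown with that of Col17a1, the gene with the largest decrease, from the same RefSeq source. The rank of Col11a1 is uncertain, as its fold is over groups around the floor. They cover chr3:114030290-114030539 (plus strand) and chr19:47692095-47692292 (minus strand), directly before the GENCODE starts, with capitals as above.
Col11a1: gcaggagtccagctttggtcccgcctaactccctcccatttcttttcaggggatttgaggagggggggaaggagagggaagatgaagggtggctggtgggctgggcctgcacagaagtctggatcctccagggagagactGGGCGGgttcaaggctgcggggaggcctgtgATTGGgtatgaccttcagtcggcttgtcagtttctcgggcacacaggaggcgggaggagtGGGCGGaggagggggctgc
Col17a1: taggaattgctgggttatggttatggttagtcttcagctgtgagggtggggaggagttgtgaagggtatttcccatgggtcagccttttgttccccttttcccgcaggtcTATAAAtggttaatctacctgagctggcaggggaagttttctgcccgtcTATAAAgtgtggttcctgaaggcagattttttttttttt
The Col11a1 stretch held 2 GC box matches and a CCAAT box match read as its reverse complement, and that of Col17a1 held 2 TATA box matches and no GC box match. The uncut window of Col17a1 also held a CCAAT box match. No matches overlapped.

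Col5a1 and Col5a2, whose chains nucleate fibrils of type I and III collagen, were low, with DMSO means of 1.14 and 0.268 CPM. Col5a2, which lies tail to tail with Col3a1 on chromosome 1, measured 0.134 to 0.536 CPM (median 0.231) with DMSO, 0.437 to 1.35 CPM (median 0.654) with AU-15330, 0.620 to 1.52 CPM (median 1.04) with cisplatin and 0.702 to 1.10 CPM (median 0.885) with the combination. It was higher with cisplatin (1.93, SE 0.330, adjusted p = 2.54e-05) and with AU-15330 (1.43, SE 0.345, adjusted p = 0.000615), and the AU-15330 libraries overlapped those of DMSO. Col5a1 ran from 0.724 to 1.46 CPM with DMSO, 0.454 to 1.04 CPM with cisplatin and 1.10 to 1.90 CPM with the combination, in which it was higher than with cisplatin (0.93, SE 0.229, adjusted p = 0.000821). Its cisplatin call against DMSO (−0.58, SE 0.236, adjusted p = 0.0412) was lost without replicate 1, 2, 4, 5 or 6 (adjusted p 0.0685 to 0.164) under library totals, without the low-count filter and with only those 2 groups in the fit (adjusted p 0.0566 to 0.0753), and when a fold change above 1.5 was required (adjusted p = 0.991). It was −0.33 in replicates 1 to 3 and −0.75 in replicates 4 to 6. The other 5 fibrillar genes, Col1a2, Col2a1, Col5a3, Col24a1 and Col27a1, did not pass the low-count filter.

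Col17a1, a transmembrane collagen of the hemidesmosome that ties epithelial cells to the basement membrane (chr19:47646344-47692094, minus strand), showed the largest change. It measured 76.2 to 126 CPM (median 125) with DMSO, 23.4 to 40.8 CPM (median 32.4) with cisplatin, 0.313 to 1.94 CPM (median 0.893) with AU-15330 and 1.32 to 1.87 CPM (median 1.52) with the combination. The DMSO, cisplatin and AU-15330 groups did not overlap, and only AU-15330 and the combination shared a range. The gene was 111-fold lower with AU-15330 than with DMSO (log2 fold change −6.79, SE 0.224, adjusted p = 3.05e-19), 3.44-fold lower with cisplatin (−1.78, SE 0.161, adjusted p = 9.95e-10) and 20.8-fold lower in the combination than with cisplatin (−4.38, SE 0.206, adjusted p = 5.02e-16). Between the combination and AU-15330 the difference was 0.63 (SE 0.270, adjusted p = 0.0625), called by DESeq2 (adjusted p = 0.0186) and without replicate 1 (0.90, adjusted p = 0.0100).

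Type VI collagen is a beaded filament of 3 chains. Its genes Col6a1 and Col6a2, on the same strand of chromosome 10 with 85161 bases between them, both rose with cisplatin. Col6a1 measured 1.11 to 4.14 CPM (median 3.67) with DMSO, 7.82 to 13.6 CPM (median 12.2) with cisplatin, 0.411 to 1.07 CPM (median 0.571) with AU-15330 and 0.767 to 1.58 CPM (median 1.05) with the combination. Cisplatin libraries were above, and AU-15330 libraries below, all DMSO libraries. The log2 fold changes were 1.94 (SE 0.242, adjusted p = 2.47e-07) and −2.23 (SE 0.300, adjusted p = 2.68e-07) against DMSO, and −3.44 (SE 0.268, adjusted p = 1.47e-11) in the combination against cisplatin, 10.8-fold lower. Col6a2 measured 0.0974 to 1.36 CPM (median 0.411) with DMSO, 2.10 to 3.63 CPM (median 2.83) with cisplatin, 0.381 to 1.54 CPM (median 1.18) with AU-15330 and 0.779 to 2.06 CPM (median 0.944) with the combination. The cisplatin libraries stood above all others, by 2.44 over DMSO (SE 0.371, adjusted p = 4.96e-06) and by 1.37 over the combination (−1.37 in the combination against cisplatin, SE 0.331, adjusted p = 0.000703). With AU-15330 alone Col6a2 was called higher (1.03, SE 0.401, adjusted p = 0.0235), unlike Col6a1, but this was lost without replicate 2 (0.67, adjusted p = 0.153), 3 or 6 and with only those 2 groups in the fit (adjusted p = 0.0632). This difference was 1.73 in replicates 1 to 3 and 0.43 in replicates 4 to 6. The ratio of Col6a1 to Col6a2 was 3.05 to 16.5 (median 7.65) with DMSO and 3.07 to 6.25 (median 3.71) with cisplatin, but from 0.348 to 1.38 (median 0.510) with AU-15330, and from 0.767 to 1.39 (median 0.963) with the combination. Col6a2 had only 2 to 22 counts per DMSO library and 8 to 35 per AU-15330 library, so single ratios carry much counting error. Col6a3, the gene of the third chain, did not pass the filter, with 6 counts summed over the DMSO group, 24 with AU-15330, 98 with cisplatin and 26 with the combination.

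Of the genes of fibril-associated collagens, Col12a1 and Col20a1 are described by the naming rule. Col12a1 rose with cisplatin from 0.0465 to 0.309 CPM (median 0.203) with DMSO to 0.559 to 1.39 CPM (median 0.846), without overlap (2.17, SE 0.333, adjusted p = 5.74e-06), and was higher in the combination (0.479 to 1.30 CPM, median 0.850) than with AU-15330 (0.238 to 0.495 CPM, median 0.351, log2 fold change 1.18, SE 0.297, adjusted p = 0.00243). Col12a1 lay below the filter level in all DMSO libraries and passed only through treated groups, so the size of its rise is uncertain. Its AU-15330 call against DMSO (0.91, SE 0.377, adjusted p = 0.0320) was lost without replicate 2, 4, 5 or 6 (adjusted p 0.0570 to 0.102) and without the low-count filter (adjusted p = 0.0606). It was 0.44 in replicates 1 to 3 and 1.00 in replicates 4 to 6. Col20a1 was at 17 ± 5.74 CPM with DMSO, 15.5 ± 3.89 CPM with AU-15330, 16 ± 4.71 CPM with cisplatin and 10.2 ± 2.35 CPM with the combination (SD, n = 6). It was lower in the combination than with cisplatin (−0.65, SE 0.229, adjusted p = 0.0145), a call lost without replicate 2 (adjusted p = 0.0777), and than with AU-15330 (−0.60, SE 0.230, adjusted p = 0.0383), a call lost without replicate 2, 3, 4, 5 or 6 (adjusted p 0.0743 to 0.0827).

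The other 4 tested genes were Col7a1 (anchoring fibrils), Col9a3, Col14a1 and Col16a1 (fibril-associated), at mean levels of 0.168 to 14.1 CPM. With cisplatin, Col16a1 (1.54, with 0.96 in replicates 1 to 3 and 2.30 in replicates 4 to 6), Col9a3 (1.01) and Col7a1 (0.78) were higher than with DMSO, the last losing its call without replicate 2, 5 or 6 (adjusted p 0.0583 to 0.118), and Col14a1 did not pass the test (0.73, SE 0.402, adjusted p = 0.132). In the combination against cisplatin, Col16a1 (−1.27), Col9a3 (−1.21) and Col14a1 (−2.72) were lower. Col14a1 had 1 to 8 counts per library with AU-15330 and with the combination, around the floor, so the sizes of its falls are uncertain. AU-15330 against DMSO gave −2.10 for Col14a1 (SE 0.533, adjusted p = 0.00101, with −0.45 in replicates 1 to 3 and −2.32 in replicates 4 to 6) and −0.48 for Col9a3 (SE 0.213, adjusted p = 0.0453), the latter lost without replicate 1, 2, 3, 5 or 6 (adjusted p 0.0518 to 0.147), under library totals (adjusted p = 0.138) and with only those 2 groups in the fit (adjusted p = 0.107). Col9a3 shares 234 exon bases (6.07% of its exons) with the antisense gene Tcfl5, and the use of strand in counting was not stated, so reads of this stretch cannot be told apart. Of the 9 tested genes outside the fibrillar and basement membrane classes, the 0 higher in the combination against cisplatin was also 0 by edgeR at an unadjusted p under 0.05 and 0 by DESeq2. Of all tested genes 35.4% were called higher there.

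AU-15330 against DMSO and the combination against cisplatin share no library, so the effect of AU-15330 was measured in separate cells without and with cisplatin. Of the 21 genes, 11 were called in both, 4 higher in both (Col3a1, Col4a6, Col11a1 and Col11a2), 6 lower in both (Col4a5, Col6a1, Col9a3, Col14a1, Col15a1 and Col17a1) and 1 in opposite directions (Col6a2). That is the same direction in 90.9% of the 11, beside 95% of the 7293 genes called in both over all tested genes. The interaction, the difference between these 2 effects, was called for 8 genes, 2 higher and 6 lower, where 33.7% of all tested genes were called (17.9% higher and 15.8% lower). Scaling by library totals moved the share of higher interaction calls over all genes from 53.0% to 41.7%.

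The interaction was positive for Col17a1 (2.42, SE 0.313, adjusted p = 1.67e-06) and Col1a1 (1.95, SE 0.333, adjusted p = 6.8e-05), which were less reduced by AU-15330 on the log2 scale in the presence of cisplatin than in its absence. Col17a1 was already 3.44-fold lower with cisplatin than with DMSO, and its AU-15330 and combination libraries shared a range. The interaction was negative for Col6a2 (−2.40, SE 0.519, adjusted p = 0.000873), Col5a2 (−1.65, SE 0.442, adjusted p = 0.00529), Col11a2 (−1.48, SE 0.371, adjusted p = 0.00312), Col6a1 (−1.21, SE 0.415, adjusted p = 0.0264), Col16a1 (−1.04, SE 0.293, adjusted p = 0.00763) and Col18a1 (−1.64, SE 0.640, adjusted p = 0.0497). The Col6a1 call was lost without replicate 1, 2 or 5 (adjusted p 0.0509 to 0.131), the Col16a1 call without replicate 4 (adjusted p = 0.0525, with −0.28 in replicates 1 to 3 and −2.01 in replicates 4 to 6) and the Col18a1 call without replicate 1, 2, 3 or 5 (adjusted p 0.0909 to 0.152) and without the filter (adjusted p = 0.0716). With the replicate number as a block 11 interactions were called, where 41.0% of all tested genes were. Col18a1 was then not called (adjusted p = 0.0638), while Col3a1 (−0.68), Col4a6 (−0.36), Col9a3 (−0.74) and Col12a1 (−0.999) were (adjusted p 0.00786 to 0.0407).

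**Figure D5:**
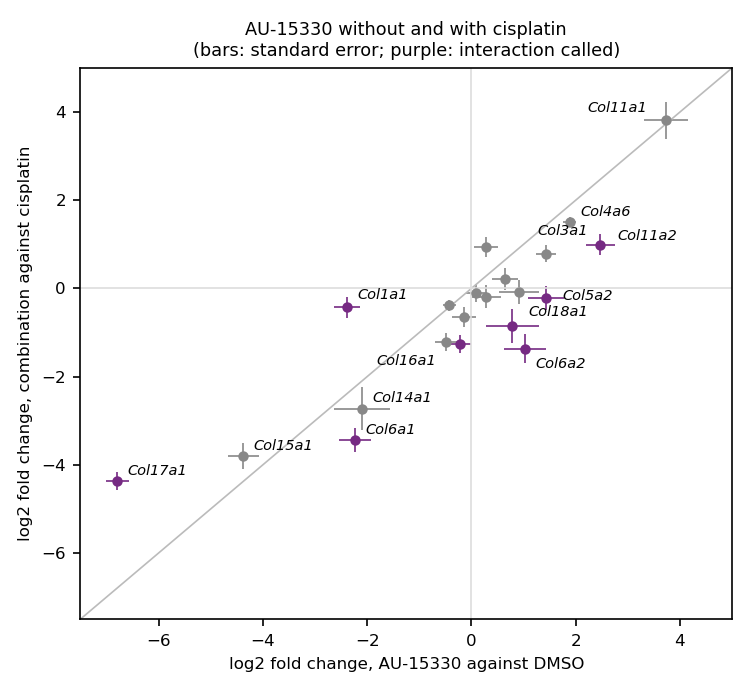
Log2 fold change of AU-15330 against DMSO (x axis) and of the combination against cisplatin (y axis) for the 21 tested collagen chain genes, with bars for the standard error, a diagonal for equal effects and purple points for genes whose interaction was called. Col1a1 (−2.38 and −0.43) and Col17a1 (−6.79 and −4.38) lie above the diagonal, and Col6a2 (1.03 and −1.37) below it.

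The 23 genes under the low-count filter were tested only when the filter was left out. With cisplatin 5 of them were then called higher than with DMSO (Col2a1, Col6a3, Col8a2, Col22a1 and Col28a1) and 0 lower, with 29 to 98 counts each over the cisplatin group, where 19.1% of the 20428 genes then tested were called higher and 16.9% lower. In the combination against cisplatin 4 were called higher (Col1a2, Col5a3, Col10a1 and Col19a1) and 4 lower (Col2a1, Col6a3, Col6a6 and Col13a1), with 1 to 26 counts each over the combination group, where 22.6% of those genes were called higher and 25.1% lower. With AU-15330 4 were called higher than with DMSO (Col4a4, Col6a3, Col8a2 and Col22a1) and 1 lower (Col6a6), where 24.9% and 25.6% of those genes were. In the combination against AU-15330 Col4a3 and Col22a1 were called higher, where 12.4% of those genes were called higher and 13.4% lower. The Col6a3 interaction was called lower, where 9.59% of those genes were called higher and 10.4% lower.

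Genes that process, cross-link or bind collagen were followed in 4 lists of 52 genes, of which 42 were tested. Their counts stand beside 26.0% higher and 25.7% lower of all tested genes with cisplatin against DMSO, 36.2% and 37.2% with AU-15330 against DMSO, and 35.4% and 32.7% in the combination against cisplatin. Genes such as Lum and Adamts3 lay below the filter level with DMSO and passed the filter through treated groups. The list counts and medians include such genes and support nothing about the lists. Of 20 tested genes for intracellular processing (hydroxylases, chaperones and secretion), 2 were higher and 15 lower with cisplatin against DMSO, with a median log2 fold change of −0.39. With AU-15330 against DMSO 5 were higher and 14 lower, and in the combination against cisplatin 6 were higher and 8 lower. P4ha2, a subunit of prolyl 4-hydroxylase, fell from 90.7 ± 49.3 CPM with DMSO to 26.2 ± 11.6 CPM with cisplatin (−1.79, SE 0.282, adjusted p = 7.95e-06) and was at 0.521 ± 0.205 CPM with AU-15330 and 2.34 ± 0.493 CPM with the combination. P4ha1, another such subunit, fell from 226 ± 66.7 to 92.9 ± 23.2 CPM with cisplatin (−1.28, SE 0.151, adjusted p = 9.82e-08). Plod2, a lysyl hydroxylase, and P3h3, of the prolyl 3-hydroxylase family, were higher in the combination than with cisplatin, Plod2 at 422 ± 48.3 against 157 ± 22 CPM (1.43, SE 0.137, adjusted p = 8.02e-10) and P3h3 at 14.5 ± 1.85 against 3.65 ± 1.5 CPM (1.99, SE 0.199, adjusted p = 1.71e-09). P3h2 rose with cisplatin from 36.8 ± 4.42 to 55.6 ± 12.5 CPM (0.59, SE 0.132, adjusted p = 0.000516). Colgalt2, a collagen galactosyltransferase, had 41 counts over the DMSO group, 125 over the cisplatin group, where it was higher (1.38, SE 0.354, adjusted p = 0.00203), and 6 over the combination group.

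Of the 10 tested genes for extracellular processing and cross-linking, 6 were higher and 1 lower with cisplatin (median 0.47), where 51.7% of all tested genes were called. With AU-15330 2 were higher and 8 lower (median −2.41), where 73.4% were called. In the combination against cisplatin 0 were higher and 7 lower (median −1.35), where 68.1% were called. No gene of this list was higher there by edgeR at an unadjusted p under 0.05 (0 of 10) or by DESeq2 (0). Adamts14, a procollagen N-proteinase, rose from 18.4 ± 5.42 CPM with DMSO to 37.4 ± 6.26 CPM with cisplatin (1.02, SE 0.178, adjusted p = 3.11e-05) and was at 0.113 ± 0.0401 CPM with AU-15330 and 1.04 ± 0.505 CPM with the combination. Its relative Adamts3 rose from 0.204 ± 0.117 to 0.785 ± 0.147 CPM with cisplatin (1.94, SE 0.351, adjusted p = 5.23e-05), with a DMSO mean below the filter level of about 0.457 CPM. The lysyl oxidases, which cross-link collagen, did not move as one. Lox fell from 98.4 ± 60.3 to 45.9 ± 22.6 CPM with cisplatin (−1.10, SE 0.358, adjusted p = 0.0120), whereas Loxl1 rose from 0.917 ± 0.233 to 2.35 ± 0.756 CPM (1.35, SE 0.339, adjusted p = 0.0017) and was at 0.144 ± 0.0660 CPM with the combination (−3.97 against cisplatin, SE 0.439, adjusted p = 1.12e-08).

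Of 6 tested collagen receptors, 2 were higher and 2 lower with cisplatin, 3 higher and 1 lower with AU-15330, and 2 higher and 3 lower in the combination against cisplatin, beside 51.7%, 73.4% and 68.1% of all tested genes called. Itgb1, the common integrin β chain of collagen receptors, fell from 806 ± 78.1 CPM to 692 ± 36.3 CPM with cisplatin (−0.22, SE 0.0630, adjusted p = 0.00508). It was higher in the combination than with cisplatin, as was the receptor kinase Ddr1, which was at 565 ± 86.2 CPM with cisplatin and 773 ± 80.2 CPM with the combination (0.45, SE 0.0965, adjusted p = 0.000189). Ddr2, the receptor for fibrillar collagen, was at 5.65 ± 4.12 CPM with DMSO, 1.94 ± 0.322 CPM with cisplatin and 0.440 ± 0.113 CPM with the combination (−2.12 against cisplatin, SE 0.464, adjusted p = 0.000246). The integrin gene Itga10 (1.09, SE 0.217, adjusted p = 0.000155) and Mrc2, an endocytic collagen receptor (0.52, SE 0.107, adjusted p = 0.000255), were higher with cisplatin than with DMSO.

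Of 6 tested proteoglycans and matrix partners, 2 were higher and 0 lower with cisplatin (median 0.30, with 0 lower also by edgeR at an unadjusted p under 0.05 and by DESeq2), 2 higher and 4 lower with AU-15330 (median −0.73), and 1 higher and 3 lower in the combination against cisplatin (median −0.93), beside the same shares of all genes. Bgn, encoding biglycan, was at 1242 ± 330 CPM with DMSO, 1029 ± 111 CPM with cisplatin, 3.37 ± 3.06 CPM with AU-15330 and 16.3 ± 8.11 CPM with the combination (−8.52 for AU-15330 against DMSO, SE 0.417, adjusted p = 7.63e-16, and −5.97 for the combination against cisplatin, SE 0.364, adjusted p = 9.66e-14). Dcn, encoding decorin, rose from 31.5 ± 9.82 to 168 ± 29.1 CPM with cisplatin (2.42, SE 0.180, adjusted p = 2.51e-11) and was at 60.4 ± 10.6 CPM with the combination. Tnc, encoding tenascin C, was lower in the combination than with cisplatin (−2.66, SE 0.282, adjusted p = 4.86e-09). Lum, encoding lumican, gave 0 counts in the 6 DMSO libraries but 22 over the cisplatin group, 67 over the AU-15330 group and 126 over the combination group. Set against 3 counts over the DMSO group in place of 0, this was 6.28-fold higher with cisplatin and 20.6-fold higher with AU-15330. The counting error of the 22 and 67 counts was not included. Over the 42 genes the median log2 fold change was −0.17 with cisplatin, −0.51 with AU-15330 and −0.42 in the combination against cisplatin, beside −0.0041, −0.0030 and 0.039 over all genes tested. Of the 42, 12 were higher and 18 lower with cisplatin, 12 higher and 27 lower with AU-15330, and 9 higher and 21 lower in the combination against cisplatin, beside 51.7%, 73.4% and 68.1% of all tested genes called. Between the combination and AU-15330 12 were higher and 8 lower, where 41.7% of all tested genes were called. The interaction was called for 16 higher and 9 lower, where 33.7% were.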

How the data were processed

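The 44 collagen chain genes, their classes and the 4 pathway lists were chosen with earlier results of these data known. Poly(A) RNA of 24 libraries was sequenced as single-end reads from a directional kit. Per the submitters' processing notes, the authors aligned the reads with STAR 2.7.1a to mm10 and deposited raw read counts per gene symbol for 2 lanes of each library, without normalization. The counting tool, annotation and use of strand are not given in the sources used here. The 48 lane columns (0 unmatched) were summed to libraries.

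Counts were scaled by TMM and tested with the quasi-likelihood F test of edgeR 4.0.16 in R 4.3.3 in 1 fit of the 4 groups (20 residual degrees of freedom), after filterByExpr, which kept 12941 genes. P-values were adjusted by Benjamini-Hochberg over these genes. The interaction was the effect of AU-15330 with cisplatin less that without it. 1 of the leukocyte markers listed at the outset is not reported here. Alternatives were DESeq2 1.42.0, its size factors, library totals, other filters, a fold change above 1.5, 2 groups only, a replicate block and leaving out each replicate number. Same-numbered libraries of AU-15330 and the combination deviated together (correlation over 0.1 in 6 of 6 pairs, 0.101 to 0.483), so the number was taken as a possible pairing of these 2 groups. Some differently numbered libraries correlated more, as AU-15330 replicate 6 did with combination replicate 5 (0.184) than with replicate 6 (0.101). The pairing is thus a hint from the data and not from the labels. The block was fitted over all 4 groups at once, so its values do not test the pairing of these 2 groups alone. The value with the block is given where it changed a call. The alternatives were extended to the pathway lists, and replicates 1 to 3 and 4 to 6 were set apart, after the data were seen.

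Genes named were those with a mean log2 CPM of at least 5, the 3 largest called increases and decreases per comparison with the same direction in 6 of 6 same-numbered libraries (no such condition for the interaction), their trimer or neighbour partners and, per pathway list, the 2 largest called changes each way with cisplatin and in the combination against cisplatin. Others are named where 5 or fewer are counted. Positions and exon lengths come from GENCODE M21 (GRCm38), and upstream sequences from RefSeq (GRCm38.p6).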

Additional observations from a re-analysis of the deposited data

Results flagged for a closer look

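In 9 of 96 groups of 6 values searched, 1 library lay far from the others, measured as its gap to the nearest library over the whole range. About 1 in 20 (4.8) would do so among independent groups. The class sums contain their own member genes, so the groups are not independent and the 9 cannot be tested against 4.8. The distant library was replicate 1 in 6 groups, replicate 3 in 2 and replicate 6 in 1. With AU-15330, replicate 1 was high for Col1a1 (104 CPM against 58.4 to 73.3 CPM, gap 0.671), for Col3a1 (95.9 CPM against 52.1 to 63.6 CPM, gap 0.738) and for the fibrillar sum (209 CPM against 125 to 137 CPM, gap 0.852). Replicate 1 was low for Col4a6 with the combination (623 CPM against 819 to 933 CPM, gap 0.633), and with cisplatin for Col20a1 (7.25 CPM against 15.5 to 20.3 CPM, gap 0.626) and for the sum of the genes outside the fibrillar and basement membrane classes (74.7 CPM against 92.2 to 101 CPM, gap 0.668). Replicate 3 was high for Col6a2 with the combination (2.06 CPM against 0.779 to 1.01 CPM, gap 0.820) and for Col18a1 with cisplatin (1.49 CPM against 0.331 to 0.639 CPM, gap 0.734). Replicate 6 was high for Col15a1 with DMSO (5.72 CPM against 3.81 to 4.43 CPM, gap 0.672).

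The effect of AU-15330 differed with cisplatin for 8 of the 21 tested genes by edgeR's interaction term, where 33.7% of all tested genes were called. The 2 positive differences were 2.417 for Col17a1 (−6.79 without and −4.38 with cisplatin) and 1.955 for Col1a1 (−2.38 and −0.43). The 6 negative ones were −2.401 for Col6a2 (1.03 and −1.37), −1.652 for Col5a2 (1.43 and −0.22), −1.64 for Col18a1 (0.78 and −0.86), −1.483 for Col11a2 (2.48 and 0.99), −1.206 for Col6a1 (−2.23 and −3.44) and −1.042 for Col16a1 (−0.22 and −1.27).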

How the results depend on the processing

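The 105 log2 fold changes (21 genes in 5 comparisons) were recomputed under 14 settings where these could be applied, giving 1431 values. Of these, 1305 kept direction and side of the threshold, 76 lost a call, 33 gained one and 17 changed sign, 0 of the last where the gene had been called. The Col4a5 interaction was −0.024 under library totals, with the cause not tested, and without single replicates ranged from −0.049 to 0.095. The other changes of sign came from leaving out a replicate, with log2 fold changes from −0.64 to 0.12 for Col11a1 in cisplatin against DMSO, −0.30 to 0.069 for it in the combination against AU-15330 and −0.37 to 0.40 in its interaction. In the combination against AU-15330 the ranges were −0.31 to 0.59 for Col14a1, −0.027 to 0.58 for Col15a1, −0.053 to 0.13 for Col5a1 and −0.20 to 0.20 for Col6a2. In AU-15330 against DMSO they were −0.43 to 0.031 for Col16a1 and −0.23 to 0.045 for Col20a1, and −0.18 to 0.12 for Col20a1 in cisplatin against DMSO. Of 60 called values, 46 were called in the same direction without each replicate in turn. Without single replicates the collagen genes called numbered 12 to 16 in cisplatin against DMSO, 12 to 14 in AU-15330 against DMSO, 13 to 15 in the combination against cisplatin, 6 to 8 in the combination against AU-15330 and 6 to 9 for the interaction, and the pathway genes 29 to 32, 35 to 38, 28 to 30, 14 to 18 and 18 to 25, where 45.0% to 52.7%, 69.4% to 74.8%, 63.4% to 69.2%, 34.7% to 43.4% and 25.2% to 35.7% of all tested genes were. With an added fold change above 1.5, fewer genes can pass, and 10 collagen genes were called with cisplatin (9 higher, 1 lower), 1 in the combination against AU-15330 and 5 for the interaction (2 higher, 3 lower), with 14, 4 and 8 pathway genes, where 13.8%, 6.51% and 7.16% of all tested genes were called, and 18 pathway genes in the combination against cisplatin, where 29.4% were. Without the low-count filter, which adds genes, 22 were called in the combination against cisplatin (9 higher, 13 lower), where 47.7% of all genes were. DESeq2 called 11 in the combination against AU-15330 (7 higher, 4 lower), where it called 44.6% of all genes, with the cause not tested. Giving type IV genes alone as the basement membrane class moved each class sum by less than its SD.

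Deviations of same-numbered libraries of different groups from their group means had correlations of −0.13 to 0.48 across genes (mean 0.145, over 0.1 in 23 of 36 pairs, mean −0.0269 for other pairs), and outside AU-15330 and the combination at least 1 pair of libraries in each pair of groups lay at 0.1 or below, so these groups were taken to share only a number. With the replicate block, 16, 15, 15, 9 and 11 collagen genes were called in the 5 comparisons in the above order and 32, 39, 31, 22 and 27 pathway genes, where 56.8%, 77.0%, 71.8%, 47.8% and 41.0% of all tested genes were. The Col18a1 interaction was no longer called (−1.55, adjusted p = 0.0638), and 7 values gained a call, namely Col3a1 and Col11a2 in the combination against AU-15330, Col1a1 in the combination against cisplatin (−0.42, adjusted p = 0.0485) and 4 interactions. No other call of a collagen gene changed. Depth limits the genes below about 1 CPM, whose counts per library are few, and all values for the 23 genes under the filter.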
